A study of Mus musculus with 4 samples.

Results

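The Sox genes described here are 10 transcription factor genes of the neural plate, neurons, glia and neural crest: Sox1, Sox3, Sox4, Sox5, Sox6, Sox8, Sox9, Sox10, Sox11 and Sox21. They were chosen by symbol, and all 10 are listed among the 28250 genes with an expression value in each library. The cells were TBV2, a line of mouse embryonic stem cells (ESC) that depends on a feeder layer and was kept with LIF. One group received solvent for 24 h (2 libraries), and the other received 5 µM MS-275, an inhibitor of class I histone deacetylases, for 24 h (2 libraries). The comparison asks which of these Sox genes changed when class I deacetylases were inhibited in cells still held as stem cells. No source used here says that the libraries of a group came from separate cultures, so p-values measure the spread between these libraries, which may be technical.

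Sox proteins bind DNA through an HMG box, bend it, and act together with partner factors. SoxB1 proteins hold neural progenitors back from differentiating, and SoxB2 proteins such as Sox21 work against them as repressors. SoxC proteins act in neurons leaving the cell cycle, SoxD proteins carry no activation domain of their own and modify the action of other Sox proteins, and SoxE proteins specify neural crest, glia and cartilage. In ESC the SoxB1 gene Sox2 is the Sox factor of the pluripotency network.

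Of the 10 genes, 6 were higher in both MS-275 libraries than in their paired solvent libraries and 2 were lower in both. Among the 20336 genes tested the same was true of 49.98% and 26.5%. The SoxE genes Sox8, Sox9 and Sox10, the SoxC gene Sox11 and the SoxB1 gene Sox3 each exceeded their solvent values by 2-fold or more within either pair, and the SoxB1 gene Sox1 was lower by 2-fold or more. Sox8 changed most, by 16.9-fold in pair 1 and 14.3-fold in pair 2. Sox4, the member with the highest level per kilobase of annotated exon, had MS-275 values on both sides of its solvent values. The same 2-fold rule, which involves no test, took in 11.5% of all 28250 genes as higher and 2.04% as lower. These shares include genes too low to be tested, which cannot meet the rule. They are therefore lower than the shares among the 20336 genes tested, to which all 10 members belong.

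The strength of these changes rested on how the replicates were treated. In limma's moderated test on log2(value + 0.005), with Benjamini-Hochberg adjustment over the 20336 genes that reached 0.001 in 2 or more libraries, 0 of the 10 genes passed 0.05, and 5 had an unadjusted p under 0.05, as did 17.4% of all genes tested. Of all genes tested, 0.00492% passed as higher and 0% as lower. The authors' headers mark the replicate 1 values of both groups as old, and libraries of the same number deviated together from their group means (r = 0.764 across genes). With the replicate number as a block in the fit, Sox3, Sox8, Sox9, Sox10 and Sox11 passed as higher and Sox1 as lower, against 21% and 6.46% of all genes. The verbs rose and fell below refer to this fit with the block.

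The median log2 fold change of the 10 genes was 0.67, beside 0.20 for all genes tested. After quantile normalization the medians were 0.26 and -0.03, and after median-ratio scaling 0.56 and -0.01.

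**Figure D1:**
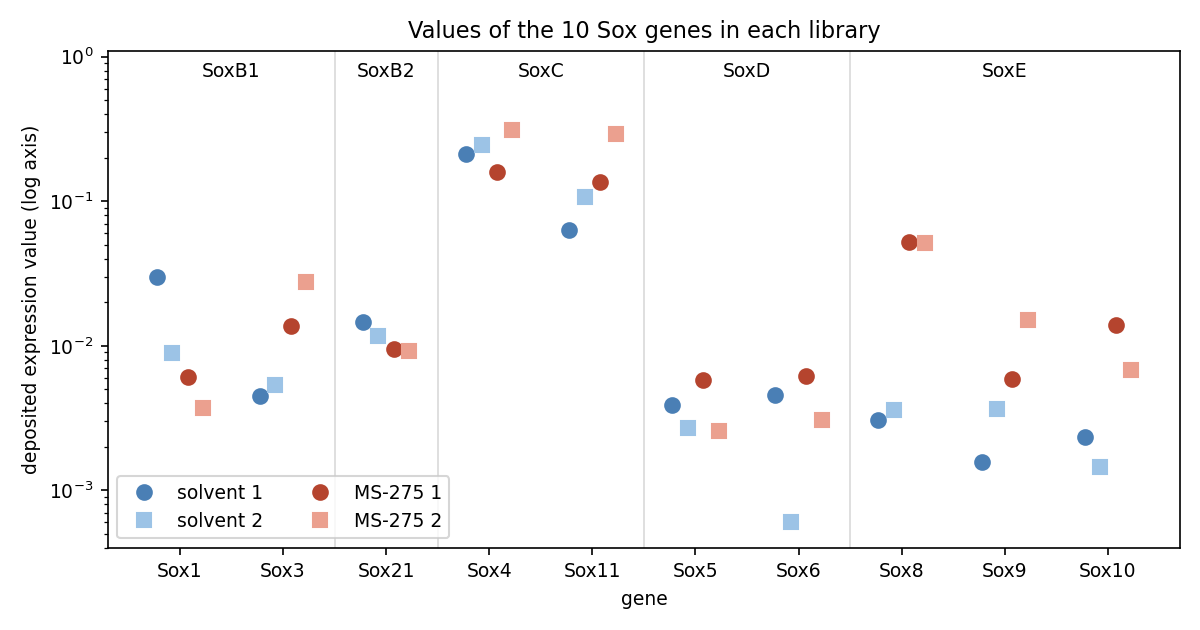
Deposited expression value (log axis) of each of the 10 Sox genes in the 2 solvent libraries (blue) and the 2 MS-275 libraries (red), with circles for replicate 1 and squares for replicate 2, ordered by Sox group. The solvent and MS-275 libraries do not overlap for Sox1, Sox3, Sox21, Sox11, Sox8, Sox9 and Sox10, and Sox8 has the widest gap, with 0.00309 and 0.00358 below 0.0521 and 0.0513. The share of all genes without overlap was not counted, so the number of members without overlap has no background.

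The alignments of each library were used as a second measure. They numbered 9785619 to 23467935 per library, and 53.2% and 54.4% of those in replicate 1 of solvent and MS-275 repeated a position already seen, so distinct positions on the exons of GENCODE M1 genes (mm9) were counted. These ran from 5608253 to 7346036 per library. Over 11083 genes (not independent of each other), a library's values correlated better with the alignments of its group's other replicate (r = 0.846 to 0.913) than with its own (r = 0.766 to 0.872), and the words old and new are also exchanged between the headers of the values and the names of the alignment files. The groups and the pairs are the same either way, but replicate numbers of values and of positions cannot be set against each other, and each measure keeps the numbers it was deposited with. Levels between genes are compared only per length, as distinct positions per kilobase of exon per 1000000 positions on exons of the library, called scaled positions per kilobase.

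The 250 bases upstream of the start are shown for the 3 genes that carry the main contrasts: Sox8, which rose most, and the SoxC pair Sox11 and Sox4, of which Sox11 rose and Sox4 did not pass. Sox1, which fell, is shown beside them. The sequences are from RefSeq (GRCm38.p6), which had promoters for 7 of the 10 genes, all but Sox3, Sox9 and Sox10. Each was found once on mm9, the build of the alignments, at chr17:25707632-25707881 on the minus strand for Sox8, chr12:28027584-28027833 on the minus strand for Sox11, chr13:29045569-29045818 on the minus strand for Sox4 and chr8:12395269-12395518 on the plus strand for Sox1. Capitals mark the GC box GGGCGG and the CCAAT box CCAAT on either strand.
Sox8: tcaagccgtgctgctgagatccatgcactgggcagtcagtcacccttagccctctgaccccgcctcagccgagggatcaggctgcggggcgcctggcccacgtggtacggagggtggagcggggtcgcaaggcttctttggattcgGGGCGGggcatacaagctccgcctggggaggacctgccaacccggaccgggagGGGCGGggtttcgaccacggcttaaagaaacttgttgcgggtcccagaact
Sox11: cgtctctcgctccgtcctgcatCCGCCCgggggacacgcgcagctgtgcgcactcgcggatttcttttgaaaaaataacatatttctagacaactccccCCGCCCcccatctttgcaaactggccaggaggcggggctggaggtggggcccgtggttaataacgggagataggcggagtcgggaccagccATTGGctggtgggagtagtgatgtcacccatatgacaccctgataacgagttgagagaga
Sox4: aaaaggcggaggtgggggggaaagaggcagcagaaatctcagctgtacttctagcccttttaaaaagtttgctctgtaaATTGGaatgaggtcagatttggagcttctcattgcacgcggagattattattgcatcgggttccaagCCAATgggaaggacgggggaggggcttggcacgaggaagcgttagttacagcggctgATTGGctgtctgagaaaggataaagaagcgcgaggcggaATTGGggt
Sox1: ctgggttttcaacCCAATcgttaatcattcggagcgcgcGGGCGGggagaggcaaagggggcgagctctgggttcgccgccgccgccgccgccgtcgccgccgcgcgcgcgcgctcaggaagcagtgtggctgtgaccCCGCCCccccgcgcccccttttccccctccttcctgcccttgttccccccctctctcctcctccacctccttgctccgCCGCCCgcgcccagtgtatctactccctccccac
The Sox8 stretch holds 2 GC boxes and no CCAAT box, and that of Sox11 holds 2 GC boxes and 1 CCAAT box. Sox4 has 4 CCAAT boxes and no GC box, while Sox1 has 3 GC boxes and 1 CCAAT box. The 250 bases before Sox21 held neither. Of 32851 RefSeq promoters of the same length, 32.7% hold the GC box and 33.8% the CCAAT box. CpG pairs numbered 18 in the Sox8 stretch, 17 in those of Sox11 and Sox21, 11 in that of Sox4 and 29 in that of Sox1, beside a median of 6 over all promoters. The promoter of Sox5 held 3, and the several promoters of Sox6 held between 1 and 10. The E box CACGTG, present in 6.02% of promoters, was found once, in Sox8. The TATA box TATAAA, present in 12.4%, was found in a Sox6 promoter and in none of Sox8, Sox11, Sox4, Sox1 and Sox21. Both were searched on either strand, and none of these motifs contains another.

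In the solvent cells the order of levels began with Sox4, at 22.3 ± 3.65 scaled positions per kilobase (SD, n = 2), followed by Sox11 at 4.98 ± 3.73. The range of Sox4, 19.7 to 24.8, lay above that of Sox11, 2.34 to 7.62. Sox2, the SoxB1 gene of the pluripotency network, was at 127 ± 3.92 on the same scale, above all of them. Sox21 (2.33 ± 0.693) overlapped with Sox11, and Sox3 (1.17 ± 0.723) lay below Sox21 without overlap. Sox8 (0.707 ± 0.379), Sox9 (0.477 ± 0.415), Sox10 (0.300 ± 0.0284), Sox6 (0.279 ± 0.187) and Sox5 (0.211 ± 0.0438) followed, and from Sox3 on each range overlapped with the next. Sox1 is not in the M1 gene models, and over 4250 bases from its RefSeq start it had 3.33 ± 1.25. In the MS-275 cells Sox8 came next after Sox4 and Sox11 among the annotated members, at 10.3 ± 3.81, with Sox4 at 22.1 ± 11.5 and Sox11 at 14.6 ± 10.3, and the range of Sox11 overlapped with both while that of Sox8 lay below that of Sox4. Counting all alignments, repeats included, on exon bases shared with no other gene kept the solvent order except that Sox6 and Sox10 exchanged places. Only replicate 1 holds repeats, so that count mixes libraries with and without them. That count gave Sox4 11.3 and 9.06 with solvent, since 2616 of its 4795 exon bases overlap with Gm17419. The Sox11 model ends at 2013 bases while positions went on to about 8250 bases. The distance of Sox11 from Sox4 and its overlap with Sox21 thus hold for the annotated exon only.

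Among the SoxB1 genes, Sox1 and Sox3 moved in opposite directions. Sox1, one of the earliest markers of neural plate, had values of 0.0299 and 0.00897 with solvent and 0.00613 and 0.00371 with MS-275. Both MS-275 values were below both solvent values, by 4.87-fold in pair 1 and 2.42-fold in pair 2. Its log2 fold change was -1.16 (SE 0.32 with the block, adjusted p = 0.352 from limma without the block and 0.0120 with it), and leaving out solvent replicate 1 or 2 brought it to -0.50 or -1.82. In the 4250 bases from the Sox1 start, at position 12395519 of chromosome 8 on mm9, 72 and 118 distinct positions were found with solvent and 26 and 27 with MS-275. Relative to the library totals these were 2.25 and 4.88 times fewer with MS-275, so the alignments gave the same order of groups.

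Sox3, an X-linked SoxB1 gene of neural progenitors (chrX:58144545-58146605, 1 exon), had values of 0.00446 and 0.00538 with solvent and 0.0138 and 0.0276 with MS-275. The groups did not overlap, and the ratios were 3.09 and 5.14. The log2 fold change was 1.32 (SE 0.31 with the block, adjusted p = 0.242 from limma without the block and 0.00470 with it). Its exon held 24 and 9 distinct positions with solvent and 72 and 31 with MS-275, so that the lowest MS-275 library lay only a little above the highest solvent library by number. Sox3 thus rested on few alignments in the solvent cells. The value of Sox3 was 0.149 and 0.600 times that of Sox1 with solvent and 2.25 and 7.45 times with MS-275, a ratio that scaling of a library does not touch. The 2 groups of ratios did not overlap, and an exact two-sided permutation test of 2 libraries against 2 cannot give less than the p of 0.333 it gave here. For Sox2 the values were 0.950 and 3.35 with solvent and 0.879 and 2.40 with MS-275 (log2 fold change -0.30, adjusted p = 0.960 without the block and 0.600 with it), and the groups overlapped.

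Sox21, the SoxB2 repressor (chr14:118632454-118636252, 1 exon), had values of 0.0145 and 0.0117 with solvent and 0.00947 and 0.00920 with MS-275. The MS-275 libraries were the lower in both pairs, by 1.53 and 1.27 times. The difference did not pass (log2 fold change -0.33, SE 0.30 with the block, adjusted p = 0.853 from limma without the block and 0.439 with it), and with quantile normalization and the block it did (-0.84, adjusted p = 0.0473). Its exon held 74 and 46 distinct positions with solvent and 39 and 39 with MS-275. Of the exon, 713 bases are shared with Gm4675, a lincRNA on the opposite strand, and were left out of the test on positions. The libraries do not keep the strand, since between 40.4% and 57.0% of the positions of each annotated member lay on the plus strand.

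Of the SoxC genes, Sox11 rose and Sox4 did not pass in either direction. Sox11, a gene of newborn neurons (chr12:28025562-28027574, 1 exon), had values of 0.0633 and 0.108 with solvent and 0.136 and 0.291 with MS-275. Each MS-275 library was above both solvent libraries, by 2.15-fold and 2.70-fold within pairs. The log2 fold change was 1.22 (SE 0.23 with the block, adjusted p = 0.219 from limma without the block and 0.000898 with it). Without MS-275 replicate 2 it was 0.69, and every setting that included the block called it. The M1 model of Sox11 ends 2013 bases after the start, whereas positions went on to about 8250 bases. Between 2000 and 8250 bases there were 681 and 282 distinct positions with solvent and 1088 and 486 with MS-275, which relative to the library totals were 1.97 and 1.54 times higher with MS-275. In the first 2000 bases, with 105 and 31 positions against 244 and 108, the ratios were 2.86 and 3.12. Within pairs, Sox11 was therefore higher along the whole stretch, by a smaller ratio beyond the annotated exon than within it. The groups overlapped on positions. Relative to the library totals, alignment replicate 1 of solvent lay above alignment replicate 2 of MS-275 in both parts, so only the pairs kept the order. In limma-voom on the annotated exon its log2 fold change was 1.51 without the block, which did not pass (adjusted p = 0.158). With the block it was 1.56, which passed (adjusted p = 1.04e-05).

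Sox4 (chr13:29040788-29045582, 1 exon), which acts with Sox11 in neurons and is also used in many other tissues, had values of 0.212 and 0.244 with solvent and 0.161 and 0.309 with MS-275. The MS-275 libraries lay on either side of the solvent libraries, 1.32 times lower in pair 1 and 1.26 times higher in pair 2. The log2 fold change of -0.03 (SE 0.24 with the block, adjusted p = 0.990 from limma without the block and 0.942 with it) was smaller than its error. Its exon held 823 and 621 distinct positions with solvent and 813 and 494 with MS-275. Of its 4795 exon bases, 2616 overlap with Gm17419, a lincRNA on the opposite strand, so reads of the pair cannot be told apart there. On the remaining bases the log2 fold change was 0.07 without the block and 0.10 with it (adjusted p = 0.900 and 0.713 from limma-voom).

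Within a library the value of Sox11 was 0.298 and 0.440 times that of Sox4 with solvent and 0.848 and 0.943 times with MS-275. The ratio was higher in both MS-275 libraries, by 1.30 on the log2 scale on average, again with an exact permutation p of 0.333, the smallest that 2 against 2 can give. With the 6 ratios between members computed here, the adjusted p was 0.5.

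**Figure D2:**
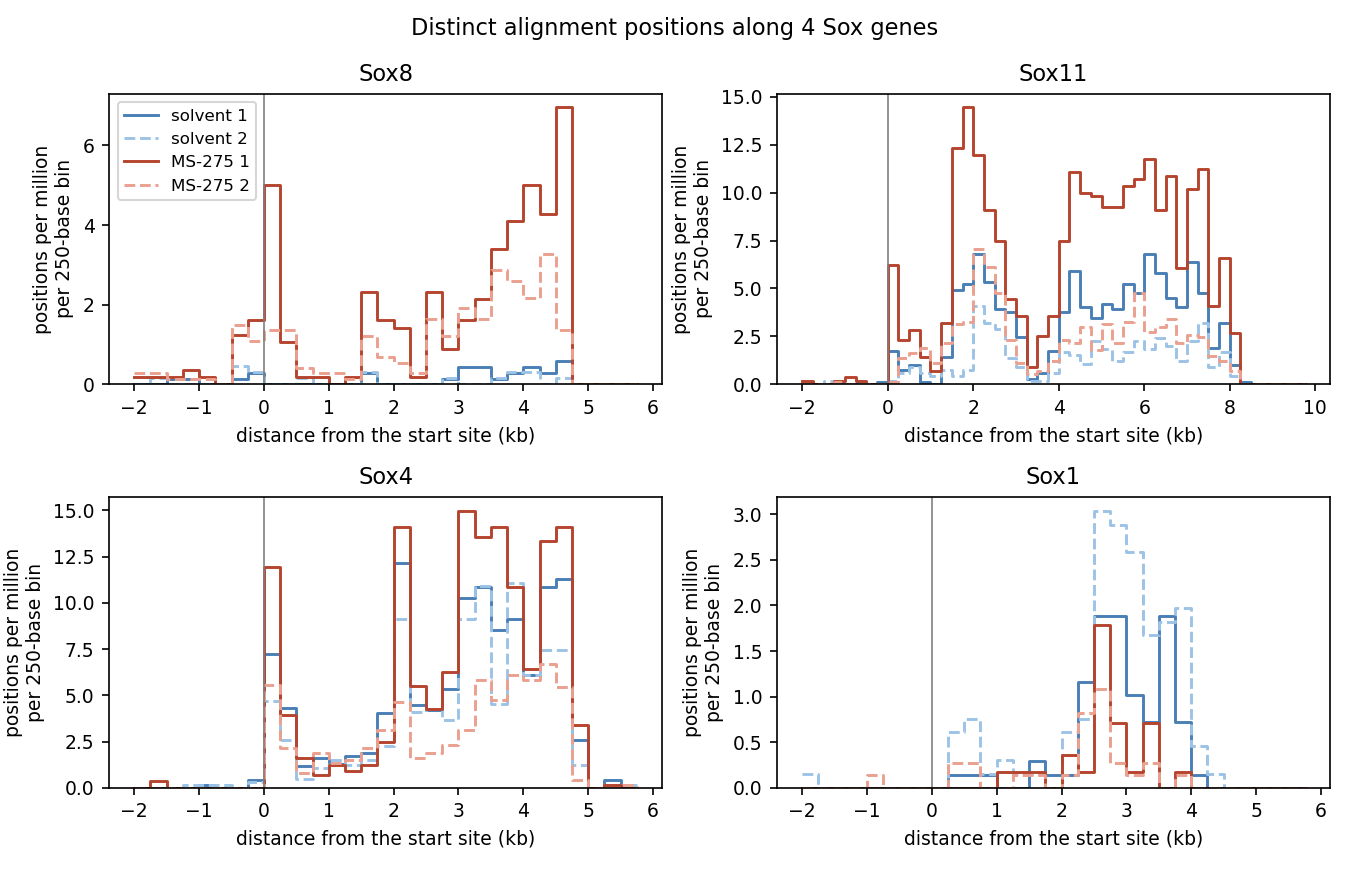
Distinct alignment positions in 250-base bins, per 1000000 positions on exons of the library, by distance from the start site in kb, for Sox8, Sox11, Sox4 and Sox1 in the 2 solvent libraries (blue) and 2 MS-275 libraries (red), with solid lines for alignment replicate 1 and dashed lines for replicate 2. Sox8 is near 0 with solvent along its whole length, Sox11 extends to about 8250 bases in all 4 libraries, and Sox1 is lower with MS-275.

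The SoxD genes Sox5 and Sox6, which lack an activation domain and work as partners of SoxE proteins in cartilage and glia, were near the lower end of the values. Sox5 (chr6:143776945-144730497) had 0.00389 and 0.00270 with solvent and 0.00581 and 0.00259 with MS-275, and the groups overlapped. Its log2 fold change was 0.13 (adjusted p = 0.917 from limma without the block and 0.730 with it). Sox6 (chr7:122614858-123182258) had 0.00457 and 0.000600 with solvent and 0.00614 and 0.00305 with MS-275. It was higher in both pairs, by 1.34-fold and 3.05-fold if values under 0.001 are set to 0.001, but solvent replicate 1 lay above MS-275 replicate 2. The log2 fold change of Sox6 was 0.37 (adjusted p = 0.686 without the block and 0.268 with it).

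The alignments placed Sox6 differently. Its 21 exon blocks held 9 and 24 distinct positions with solvent and 35 and 49 with MS-275, and with limma-voom and the block it passed as higher (log2 fold change 1.39, SE 0.41, adjusted p = 0.00863), while without the block it did not (1.55, adjusted p = 0.0808). Of its exonic positions, 82.1% lay in the last block, which makes up 66.4% of the exon length. Sox5 had 24 and 17 positions with solvent and 27 and 36 with MS-275 over 25 blocks, and did not pass (0.68, adjusted p = 0.159 with the block). Of these, 76.0% lay in its last block, which holds 35.8% of the length. Introns of Sox5, 939177 bases in all, held 76 and 32 positions with solvent and 62 and 57 with MS-275, more than its exons in every library. For Sox6, 19 and 8 intronic positions stood against 31 and 25. At this depth the alternative first exons of both genes could not be compared, since the earlier blocks held 25 positions of Sox5 and 21 of Sox6 over all 4 libraries.

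All 3 SoxE genes rose, and after quantile normalization all stayed higher while Sox8 alone of them passed with the block. Sox8, expressed in neural crest, glia and testis, had values of 0.00309 and 0.00358 with solvent and 0.0521 and 0.0513 with MS-275. The 2 libraries of each group lay close together and the groups were far apart. The solvent mean was 0.00334 ± 0.000346 and the MS-275 mean 0.0517 ± 0.000573 (SD, n = 2 for both), which is 2.77 as a log2 fold change (SE 0.31 with the block, adjusted p = 0.0655 from limma without the block and 1.51e-05 with it). Because the solvent values are under the pseudocount of 0.005, this understates the ratio. If only genes with a mean of at least 0.01 over the 4 libraries were kept, Sox8 passed without the block too (adjusted p = 0.0142 from limma). Under that filter 466 of all genes passed as higher, and Sox8 reached the mean only through its MS-275 values. Leaving out any 1 library kept its log2 fold change between 2.72 and 2.81.

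Sox8 lies at chr17:25702837-25707631 with 3 exons. Its exons held 21 and 9 distinct positions with solvent and 227 and 174 with MS-275, and limma-voom called it without the block (log2 fold change 3.84, SE 0.57, adjusted p = 0.00680) and with it (adjusted p = 1.27e-08). In the first 500 bases of the gene, where the sequence shown above leads in, there were 0 positions in both solvent libraries and 34 and 20 in the MS-275 libraries. With 3 positions put in place of each 0, the start of Sox8 was 13.3-fold and 5.97-fold higher in the MS-275 libraries. The counting error of the 34 and 20 positions is not included, so these ratios are not lower bounds. Its 1677 intron bases held 0 and 1 positions with solvent and 13 and 11 with MS-275. The positions on Sox8 were thus higher in exons and introns alike, and from the start of the gene to its end.

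Sox9, the SoxE gene of neural crest, cartilage and glial precursors (chr11:112643538-112649074, 3 exons), had values of 0.00158 and 0.00363 with solvent and 0.00591 and 0.0152 with MS-275. The groups did not overlap, with ratios of 3.74 and 4.19. The log2 fold change was 0.98 (SE 0.27 with the block, adjusted p = 0.265 from limma without the block and 0.0130 with it). Leaving out MS-275 replicate 2 brought it to 0.53. Its exons held 22 and 5 distinct positions with solvent and 66 and 13 with MS-275, so 1 solvent library had more than 1 MS-275 library and only the pairs kept the order. In limma-voom its log2 fold change was 1.37 without the block, which did not pass (adjusted p = 0.411), and 1.69 with the block, which passed (adjusted p = 0.00179).

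Sox10, the SoxE gene of crest-derived glia and pigment cells and of oligodendrocytes (chr15:78985343-78994920, 4 exons), had values of 0.00232 and 0.00145 with solvent and 0.0140 and 0.00681 with MS-275. Both MS-275 libraries were above both solvent libraries, by 6.01-fold and 4.70-fold within pairs. The log2 fold change was 1.12 (SE 0.26 with the block, adjusted p = 0.157 from limma without the block and 0.00513 with it). Its exons held 6 and 5 distinct positions with solvent and 32 and 43 with MS-275, and limma-voom called it without the block (2.73, SE 0.53, adjusted p = 0.0141) and with it (adjusted p = 0.000135). With fewer than 10 positions in both solvent libraries, Sox10 entered that test only through its MS-275 libraries. Sox10 thus changed by more on the alignments than on the values, where both solvent values are below the pseudocount.

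Over the 9 annotated members, limma-voom on distinct positions called Sox8 and Sox10 as higher without the block, against 15.1% of 16994 genes, and 0 as lower, against 5.08%; 3 of the 9 had an unadjusted p under 0.05, as did 35.1% of all genes. With the block it called 6 as higher, Sox3, Sox6, Sox8, Sox9, Sox10 and Sox11, against 29.7%, and 0 as lower, against 13.8%, with 6 at an unadjusted p under 0.05, as were 50.1% of all genes. The median log2 fold change of the 9 was 1.51 without the block, beside 0.14 for all genes. Genes entered these fits with at least 10 positions in at least 2 libraries. Sox10 had fewer in both solvent libraries, and Sox3, Sox6, Sox8 and Sox9 each had fewer in a solvent library. These genes therefore entered only with the help of the MS-275 libraries.

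Ratios between the SoxE genes were taken within each library, and no test of them passed. The value of Sox8 was 1.96 and 0.986 times that of Sox9 with solvent and 8.81 and 3.37 times with MS-275. Against Sox10 it was 1.33 and 2.47 times with solvent and 3.73 and 7.53 times with MS-275. Neither pair of groups overlapped, and both had an exact permutation p of 0.333, the smallest possible. The ratio of Sox9 to Sox10 overlapped between groups, at 0.681 and 2.50 with solvent and 0.424 and 2.23 with MS-275 (p = 0.667, exact permutation test).

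**Figure D3:**
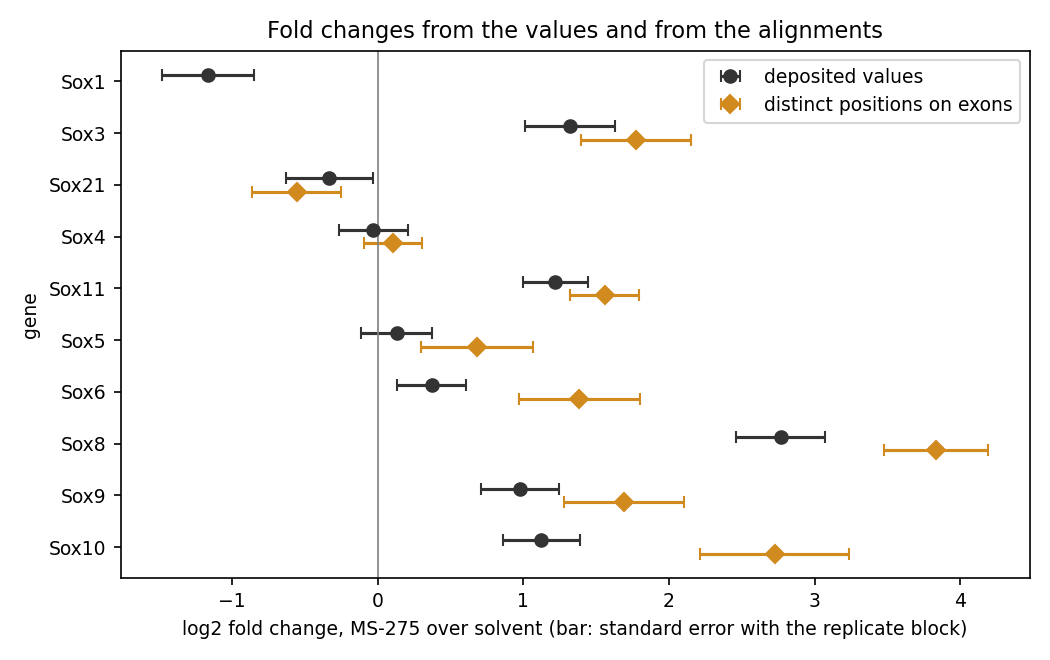
Log2 fold change of MS-275 over solvent for each of the 10 Sox genes, from the deposited values (black circles) and from distinct positions on exons (orange diamonds, not given for Sox1), with bars for the standard error in the fit with the replicate block. Sox8 is furthest to the right on both measures (2.77 and 3.84), Sox1 furthest to the left on the values (-1.16), and Sox4 is within its standard error of 0 on both.

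The other Sox genes gave no common direction. All 10 are listed and 9 were tested. With the block 3 rose and 3 fell, beside 21% and 6.46% of all genes, and without it their adjusted p from limma lay between 0.0995 and 0.960. The SoxF gene Sox17, a factor of endoderm and endothelium, rose (log2 fold change 1.33, adjusted p = 0.00266 from limma with the block), as did Sox30, of the male germline (0.99, adjusted p = 0.0142), and the SoxB2 gene Sox14 (0.74, adjusted p = 0.0168). Sox14 was listed at 0 and 0.000390 with solvent and at 0.00351 and 0.00383 with MS-275. It was thus tested only through its MS-275 values, and all of its values lie under the pseudocount. The SoxC gene Sox12 fell (-0.63, adjusted p = 0.0434), as did the SoxD gene Sox13 (-0.80, adjusted p = 0.0492) and Sox15 (-0.71, adjusted p = 0.0313). Sox2, Sox7 (0.19) and Sox18 (0.16) did not pass, and Sry was listed at 0 in all 4 libraries. The median log2 fold change of the 9 was 0.16. Sox groups B, C, D and F therefore each held genes that differed in direction or call, and in group E all 3 genes rose. The SoxF genes were all higher in both pairs, as the SoxE genes were, but only Sox17 of them passed.

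**Figure D4:**
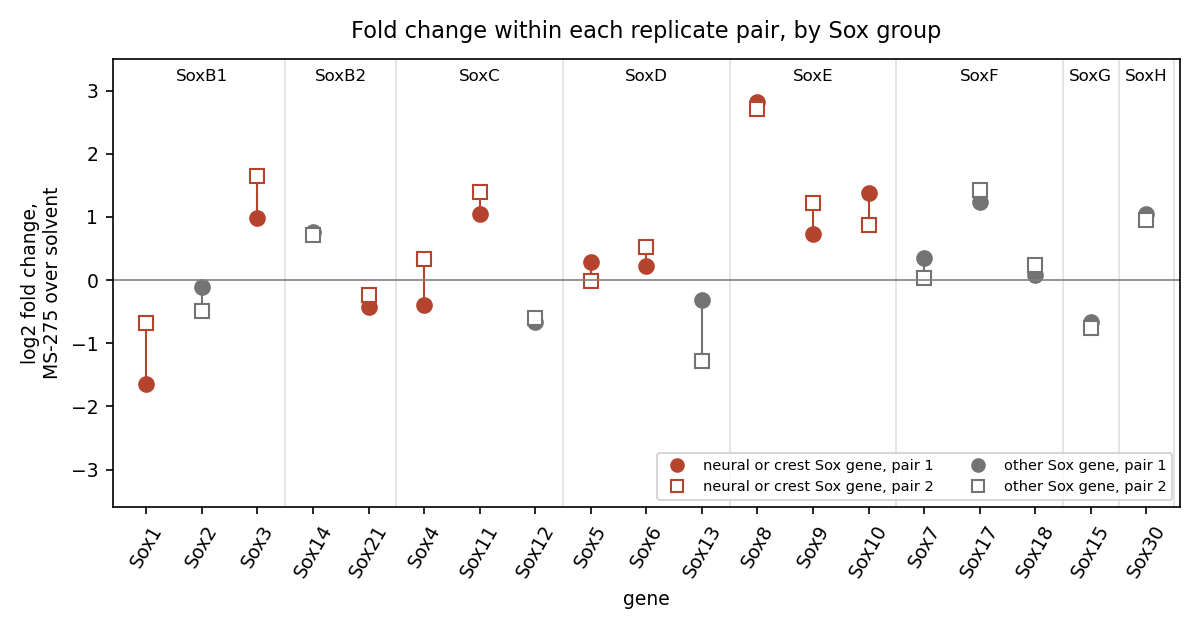
Log2 fold change of MS-275 over solvent on log2(value + 0.005) within replicate pair 1 (filled circles) and pair 2 (open squares) for 19 Sox genes by Sox group, with the 10 neural and crest genes in red and the other Sox genes in grey. Both pairs of Sox8, Sox9 and Sox10 lie above 0, as do those of the SoxF genes Sox7, Sox17 and Sox18. The SoxB1, SoxC and SoxD groups have genes on both sides or across 0.

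Genes known to act with these factors were counted from fixed lists, beside 10163 of the 20336 genes tested that were higher in both pairs and 5397 that were lower. With the block 4277 of the genes tested rose (21%) and 1314 fell (6.46%). Of 17 neural plate genes tested, the pairs placed 11 higher and 5 lower, and 4 rose and 2 fell with the block (median log2 fold change 0.47). Nes, an intermediate filament of neural progenitors (2.29, adjusted p = 4.09e-05 from limma with the block), and Fabp7, of radial glia (1.66, adjusted p = 0.000999), were furthest up, and Zic2 (-1.73, adjusted p = 0.000265) and Otx2 (-1.44, adjusted p = 0.000259) furthest down. Of 15 neural crest genes, 12 exceeded solvent in both pairs and 2 fell short of it, and 7 rose and 2 fell with the block (median 0.64). Snai1, which drives cells out of epithelia, was highest (3.27, adjusted p = 2.37e-06), followed by the receptor gene Ret (2.64, adjusted p = 3.30e-05), while Foxd3, also a pluripotency factor (-1.86, adjusted p = 0.000410), and Mitf, the pigment cell factor (-1.35, adjusted p = 0.000557), fell most.

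Of 14 genes that SoxE proteins are known to switch on in glia, 11 were above solvent in both pairs and 2 below it, and 6 rose and 1 fell with the block (median 0.56). The myelin gene Mbp (2.02, adjusted p = 0.000200 from limma with the block) and the oligodendrocyte factor Olig1 (1.56, adjusted p = 0.00104) were highest. The connexin gene Gjb1 fell (-1.83, adjusted p = 0.000507). Of 12 cartilage genes under SoxE and SoxD control, 9 were higher in both pairs and 0 lower, and 5 rose with the block (median 0.52). Col9a1 (2.26, adjusted p = 5.00e-05) and Comp (1.67, adjusted p = 0.000437) were highest, whereas Col9a2 (0.15) and Matn3 (-0.09) did not pass. Col9a1 and Comp were each under 0.001 in a solvent library, so both were tested only with the help of their MS-275 values. Of 9 genes under SoxC control, both pairs had 4 higher and 3 lower, and 1 rose and 1 fell with the block (median 0.09). The one that rose was Neurog2 (0.69, adjusted p = 0.0244) and the one that fell was Tead2 (-0.79, adjusted p = 0.0254), while Nhlh1 (0.54) and Stmn2 (-0.48) did not pass. Neurog2 had values of 0 and 0.000580 with solvent and 0.00372 and 0.00338 with MS-275. It was thus tested only through its MS-275 values, and all of its values lie under the pseudocount. The medians of these lists depended on the scaling. After quantile normalization and after median-ratio scaling they were 0.02 and 0.24 for neural plate, 0.31 and 0.54 for neural crest, and 0.29 and 0.45 for glia. For cartilage they were 0.12 and 0.40, and for the SoxC list -0.46 and -0.13, beside -0.03 and -0.01 for all genes.

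Markers of the cells in the dish were read beside these genes, with log2 fold changes from limma in parentheses. Of all genes tested, 49.98% were higher and 26.5% lower in both pairs, and 21% rose and 6.46% fell with the block. All 12 ESC markers, among them Nanog and Sox2, were listed, and all 12 were lower in both pairs, with 5 that fell with the block (median -0.65). Fgf4 (-1.56) and Utf1 (-1.45) were furthest down, and Nanog (-0.23) and Dppa5a (-0.22) moved least. The summed value of the ESC markers was 7.12 and 24.3 with solvent and 5.49 and 14.2 with MS-275. Of the 12 feeder fibroblast markers, 8 were higher and 2 lower in both pairs, and their sum was 0.396 and 0.335 with solvent and 0.728 and 0.729 with MS-275, with Lum under 0.001 in at least 1 library. Col1a1 (2.41) and Fbn1 (1.37) were highest, Dcn (-0.72) and Col3a1 (-0.52) lowest, and 7 rose with the block. Endoderm markers, of which 8 of 9 tested were higher in both pairs and 3 rose and 1 fell with the block, summed to 0.199 and 0.0643 with solvent and 0.353 and 0.254 with MS-275, led by Cxcr4 (2.35) and Afp (1.37), with Hnf4a (-0.99) and Sox7 (0.19) last and Afp, Foxa2 and Ttr under 0.001 in at least 1 library. Trophectoderm markers, all 8 tested higher in both pairs and 5 risen with the block, summed to 0.113 and 0.0667 against 0.295 and 0.211, led by Krt18 (1.84) and Elf5 (1.53), with Hand1 (0.36) and Ascl2 (0.28) last and Tpbpa at 0 throughout. Cdx2, Elf5, Gata3 and Hand1 were under 0.001 in at least 1 library. Elf5, which is among the 5 that rose, was at 0.00096 and 0.00068 with solvent. It was thus tested only through its MS-275 values. Afp was at 0.00127 and 0.00023 with solvent, so it was tested only with the help of its MS-275 values. Markers of several other cell types thus moved in the same direction as the SoxE genes, Sox3 and Sox11, and their part in these results was not tested. In RNA from a whole dish, more cells that express a gene and more RNA per cell cannot be told apart.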

How the data were processed

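RNA was selected for poly(A), fragmented by hydrolysis and copied with random hexamers, and the authors mapped the reads to mm9 and made a normalized expression signal per gene with Genomatix. The deposited signal values are not counts, and their formula and the aligner are not given in the sources used here. The vehicle of the solvent libraries was not resolved. The deposited alignments, 35 bases each, were counted once per position and strand on GENCODE M1 exons shared with no other gene (genes with at least 10 positions in at least 2 libraries). Another 6 deposited tables, with ratios and shortened lists, were not used.

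R 4.3.3 with limma 3.58.1, and Python with numpy, pandas, scipy and matplotlib, were used. Genes that reached 0.001 in 2 or more of the 4 libraries were fitted with lmFit and eBayes with a trend, two-sided, without a block and with the replicate number as a block, and positions with voom. Pairs come from the replicate numbers of the deposited titles. Ratios set values under 0.001 to 0.001. The members and gene lists were chosen with earlier results of these data known. Text names all Sox genes and, per list, the 2 tested genes furthest up and the 2 furthest down, except 1 gene that is not reported here. Steps were tested on simulated data.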

Additional observations from a re-analysis of the deposited data

Results flagged for a closer look

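Alignments beside the annotated Sox genes, which enter no comparison above, were counted in the 6 kb upstream and downstream of each and in neighbouring genes. With at least 10 positions in each MS-275 library, 4 of these stretches were at least 2-fold higher, relative to the library totals, in both MS-275 libraries than in either solvent library. This filter admits a stretch through the group where it is high. Stretches beside other genes were not counted, so the number 4 has no background and says nothing particular to Sox genes. Upstream of Sox5 there were 34 and 36 distinct positions with MS-275 against 6 and 5 with solvent. Upstream of Sox8 there were 68 and 109 against 36 and 38, and this stretch holds the lincRNA 2810468N07Rik, which is transcribed away from Sox8. Downstream of Sox9 there were 12 and 10 against 1 and 1. The far end of that stretch lies within Gm11681, so the counts of both share alignments. The transcript Gm11681, which lies downstream of Sox9 on the opposite strand, had 13 and 20 against 1 and 0. In the other direction, Gm10863, upstream of Sox10 on the opposite strand, had 5 and 15 distinct positions with MS-275 against 52 and 73 with solvent.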

How the results depend on the processing

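Without the block, 0 members passed as higher or lower with pseudocounts of 0.001 and 0.02, no filter, quantile normalization, median-ratio scaling or no trend. With a mean of at least 0.01, 1 passed as higher, namely Sox8, which reaches that mean only through its MS-275 values. Over all genes these settings gave 0 higher, except 466 higher and 65 lower with that filter, against 1 and 0 as reported. With the replicate block 5 members passed as higher and 1 as lower, and 4277 and 1314 of all genes. With the block, and chosen after seeing the data, pseudocount 0.001 gave 5 and 1 (4216 and 1220 genes), pseudocount 0.02 gave 5 and 1 (3790 and 1158), median-ratio scaling 5 and 1 (3379 and 2864) and quantile normalization 2 and 2 (2936 and 2961), with Sox8 and Sox11 higher, Sox1 and Sox21 lower, and Sox3, Sox9 and Sox10 not past the threshold. Over the fits with the block, the adjusted p of Sox3, Sox9 and Sox10 reached 0.0637, 0.169 and 0.0592, and that of Sox8 0.000222. Distinct positions gave 2 members higher (2568 and 864 genes) without the block and 6 with it (5053 and 2343). All alignments, among which only replicate 1 holds repeats, gave 1 higher (504 and 24) and 6 higher with the block (4558 and 1772). The 2-fold rule gave 2 higher and 0 lower with a floor of 0.01, and 0 lower among annotated members on positions. The sign turned for members that did not pass on the values, of which Sox6 passed on positions with the block. Sox4 was at 0.07 without solvent replicate 2, 0.43 without MS-275 replicate 1, 0.073 on distinct positions, 0.10 with the block and 0.42 and 0.46 on all alignments, with -0.49 without MS-275 replicate 2. Sox5 was at -0.32 with quantile normalization, with or without the block, and -0.12 and 0.39 without MS-275 replicates 1 and 2, and Sox6 at -0.015 and 0.76 without solvent replicates 2 and 1. The cause was not tested. Fits without 1 library leave the replicates unbalanced and give no test. Solvent values of Sox8, Sox9 and Sox10 lie under the pseudocount, and 5 to 22 positions stand behind them, so their ratios carry wide counting error.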
